A study of Mus musculus with 10 samples.

Results

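The genes described here encode the diacylglycerol kinases and the RasGRP exchange factors, the enzymes and sensors that set how long the lipid diacylglycerol signals in a lymphocyte. They were chosen by name: 6 diacylglycerol kinase genes (Dgka, Dgkd, Dgke, Dgkg, Dgkh and Dgkz) and 4 RasGRP genes (Rasgrp1, Rasgrp2, Rasgrp3 and Rasgrp4), 10 of the 33585 genes in the files. The choice was made with the difference between the groups known, so the values of these genes in that contrast are given as a description and without a test. All 10 were found, and 8 reached the mean of 1 FPKM (fragments per kilobase of transcript, scaled to the mapped fragments of the library, a unit that corrects for gene length) that the fit across genes required. Dgkg and Dgkh did not.

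The libraries were bulk RNA-seq of whole tumor-draining lymph nodes (TDLN). Each came from 1 female BALB/c mouse, 6 weeks old by the study's methods, with a 4T1 tumor, a mouse mammary carcinoma line, in the mammary fat pad. Every tumor was treated by microwave ablation (MWA) on day 10, and nodes were collected on day 15. In the MWA group (n = 5) the mice then received the vehicle PBS by the study's methods, and in the MWA+2DG group (n = 5) they received 2-deoxy-D-glucose (2DG), an inhibitor of glycolysis, at 500 mg/kg every 2 days. Both groups carried an ablated tumor, so no library shows a node without tumor or ablation.

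Diacylglycerol is made at the membrane when phospholipase C gamma is activated below the T cell or B cell receptor. It recruits RasGRP proteins such as RasGRP1, which load Ras with GTP and so start the ERK cascade. Diacylglycerol also recruits protein kinases C and D. Diacylglycerol kinases end the signal by phosphorylating the lipid to phosphatidic acid. In T cells DGK-alpha and DGK-zeta, the products of Dgka and Dgkz, are known as brakes on receptor signaling, and their loss makes T cells easier to activate.

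Facts of the libraries bear on every value. Summed FPKM ran from 312143 to 359984 and 24289 to 25184 genes were above 0. The files give no counts, so the depth is unknown and no counting interval is given. Replicate 5 was the lowest library of its group for 6 of the 8 members above 1 FPKM in MWA and for 7 of 8 in MWA+2DG. It was also the lowest for 39.1% and 49.8% of all genes tested. T cell genes and B cell genes were present at high levels in every library, with 10 of 10 genes of each list above the filter. Their part in the values below was not tested, and in a bulk node fewer cells of a type and less RNA per cell cannot be told apart.

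The levels of the family spanned several orders of magnitude. Averaged over the 10 libraries, Dgka was highest at 84.8 ± 14.9 FPKM (SD, n = 10), above 96.2% of the genes tested. Dgkz followed at 50.7 ± 5.37 FPKM and Dgkd at 35.7 ± 4.21 FPKM. Rasgrp3 at 24.0 ± 4.83, Rasgrp1 at 22.3 ± 3.15 and Rasgrp2 at 21.6 ± 3.30 FPKM lay close together, and neighbours in that order exchanged places, with the upper gene above the lower in 6 of 10 libraries for either pair. Dgke at 2.28 ± 0.303 and Rasgrp4 at 1.91 ± 0.267 FPKM were about an order of magnitude below Rasgrp2. Dgka exceeded Dgkz, Dgkz exceeded Dgkd and Dgkd exceeded Rasgrp3 in 10 of 10 libraries, although only the first of these steps separated the ranges.

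**Figure D1:**
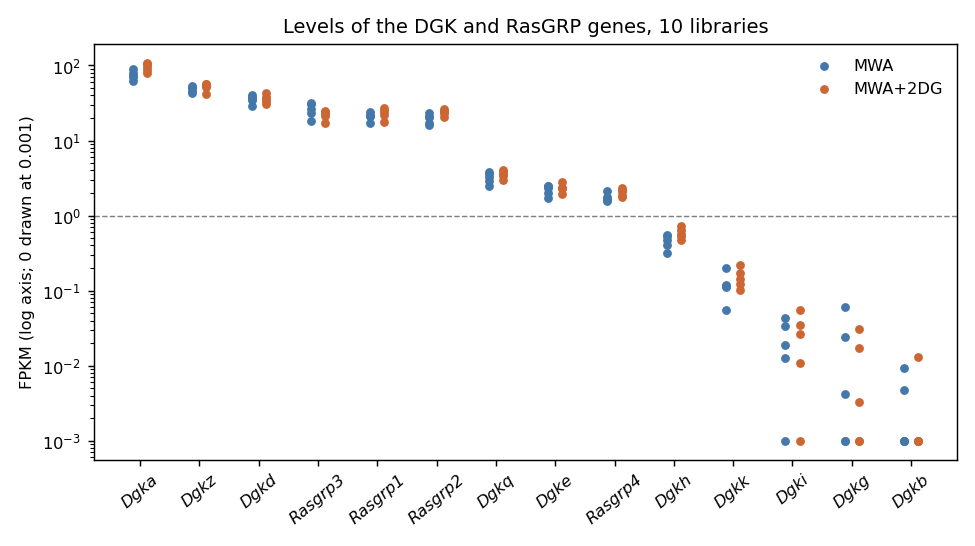
FPKM (log axis) of the 10 members and of the other 4 mouse diacylglycerol kinase genes, with 1 point per library, MWA left and MWA+2DG right, and the dashed line at 1 FPKM. Dgka, Dgkz and Dgkd lead, Rasgrp1, Rasgrp2 and Rasgrp3 share a level between 16.0 and 32.0 FPKM, and 5 genes lie below 1 FPKM.

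Dgkh and Dgkg, the members under the filter, were low in all libraries. Dgkh, a type II kinase like Dgkd, was read at 0.410, 0.467, 0.535, 0.556 and 0.320 FPKM in MWA replicates 1 to 5 and at 0.643, 0.569, 0.533, 0.471 and 0.726 FPKM in MWA+2DG. All 5 MWA+2DG libraries were above the MWA mean and 3 were above every MWA library. The log2 difference was 0.12 with a standard error of 0.057, and 0.31 with a pseudocount of 0.1, since the scale understates changes of low genes. Dgkg, a calcium-regulated type I kinase, was listed at 0 in 4 of 10 libraries and never above 0.0609 FPKM. The other 4 kinase genes of the mouse, not members here, were Dgkq at 3.39 ± 0.491 FPKM (SD, n = 10) and Dgkk, Dgki and Dgkb, each at 0.136 FPKM or less on average.

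Dgka (ENSMUSG00000025357) showed the largest difference between the groups of the 8 members tested. It was 88.6, 80.3, 72.0, 70.2 and 61.8 FPKM in MWA replicates 1 to 5, and 108, 95.7, 103, 87.7 and 80.1 FPKM in MWA+2DG. All 5 libraries of MWA+2DG were above the MWA mean and 3 were above every MWA library, while the lowest MWA+2DG library was still below the highest MWA library, so the groups overlapped. The means were 74.6 ± 10.2 and 95.0 ± 11.4 FPKM (SD, n = 5 each), a log2 difference of 0.35 with a standard error of 0.113 on the log2(FPKM + 1) scale. It kept its sign in 19 of 19 alternatives, between 0.28 and 0.43. Several of these, such as a change of filter or a term for replicate, cannot alter a gene's difference. The count is thus partly fixed in advance, and every alternative uses the libraries that chose the gene.

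The study's rule for a changed gene was applied here as an unadjusted P below 0.05 with a log2 difference beyond 0.25, since its methods name neither an adjustment nor the base of the logarithm. By the upper side of that rule Dgka and Rasgrp2 were called, 2 of the 8 members, where 0.952% of the 13334 genes tested were called. By the lower side 0 members were called against 1.87% of all genes. After Benjamini-Hochberg adjustment limma called 0 of 13334 genes (0%), with 567 at an unadjusted P below 0.05. No member had groups that did not overlap, a pattern that 0.802% of all genes showed. The members were chosen with this contrast known, so nothing is read from these counts.

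Dgkz, the zeta kinase of the T cell receptor pathway, was 52.1, 53.5, 50.8, 43.3 and 45.0 FPKM in MWA and 53.6, 57.4, 52.1, 56.6 and 42.2 FPKM in MWA+2DG. MWA+2DG held both the highest and the lowest library, and the log2 difference was 0.09 with a standard error of 0.099. Dgkd, the delta kinase, was 37.5, 40.3, 35.5, 34.7 and 28.7 FPKM in MWA and 42.7, 35.9, 37.8, 34.1 and 30.3 FPKM in MWA+2DG, with a log2 difference of 0.03 and a standard error of 0.110. Its sign turned in 2 of 19 alternatives, to -0.04 without MWA replicate 5. Dgke, the epsilon kinase that prefers arachidonoyl diacylglycerol, ranged from 1.73 to 2.50 FPKM in MWA and from 1.97 to 2.80 FPKM in MWA+2DG, with a log2 difference of 0.06 and a standard error of 0.092.

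Rasgrp2 (ENSMUSG00000032946) encodes CalDAG-GEFI, the exchange factor that activates Rap1 and integrins. It was 23.2, 20.6, 20.6, 16.0 and 17.0 FPKM in MWA and 24.6, 23.3, 23.8, 26.4 and 20.5 FPKM in MWA+2DG. Of the MWA+2DG libraries 4 were above every MWA library, and replicate 5 lay just below MWA replicates 2 and 3. The means were 19.5 ± 2.96 and 23.7 ± 2.13 FPKM (SD, n = 5 each), a log2 difference of 0.28 with a standard error of 0.108. Rasgrp2 no longer met the study's rule without MWA replicate 4, where the difference was 0.21, nor without MWA replicate 5, MWA+2DG replicate 1 or MWA+2DG replicate 4.

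Rasgrp3 (ENSMUSG00000071042), the family member best known from B cells, was the only one of the 8 tested members with a negative difference. It was 23.4, 31.1, 26.0, 32.0 and 18.1 FPKM in MWA and 24.8, 24.0, 22.3, 21.4 and 17.1 FPKM in MWA+2DG. MWA replicates 2, 3 and 4 were above every MWA+2DG library, but MWA replicates 1 and 5 were within the MWA+2DG range. The means were 26.1 ± 5.70 and 21.9 ± 3.01 FPKM, a log2 difference of -0.23 with a standard error of 0.155. It met the study's rule only when MWA replicate 5 was left out, at -0.34.

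Rasgrp1, the exchange factor that couples the T cell receptor to Ras, was 22.2, 21.5, 21.3, 24.1 and 17.2 FPKM in MWA and 25.9, 22.2, 26.9, 23.9 and 17.5 FPKM in MWA+2DG. The ranges overlapped over most of their length, and the log2 difference was 0.12 with a standard error of 0.123. Rasgrp4, known from mast cells and other myeloid cells, ranged from 1.56 to 2.12 FPKM in MWA and from 1.80 to 2.32 FPKM in MWA+2DG. Of the MWA libraries 4 were below every MWA+2DG library and MWA replicate 3 was not, for a log2 difference of 0.16 with a standard error of 0.079. Rasgrp4 met the study's rule in 1 alternative, the rescaling of each library to a sum of 1000000, at 0.26.

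**Figure D2:**
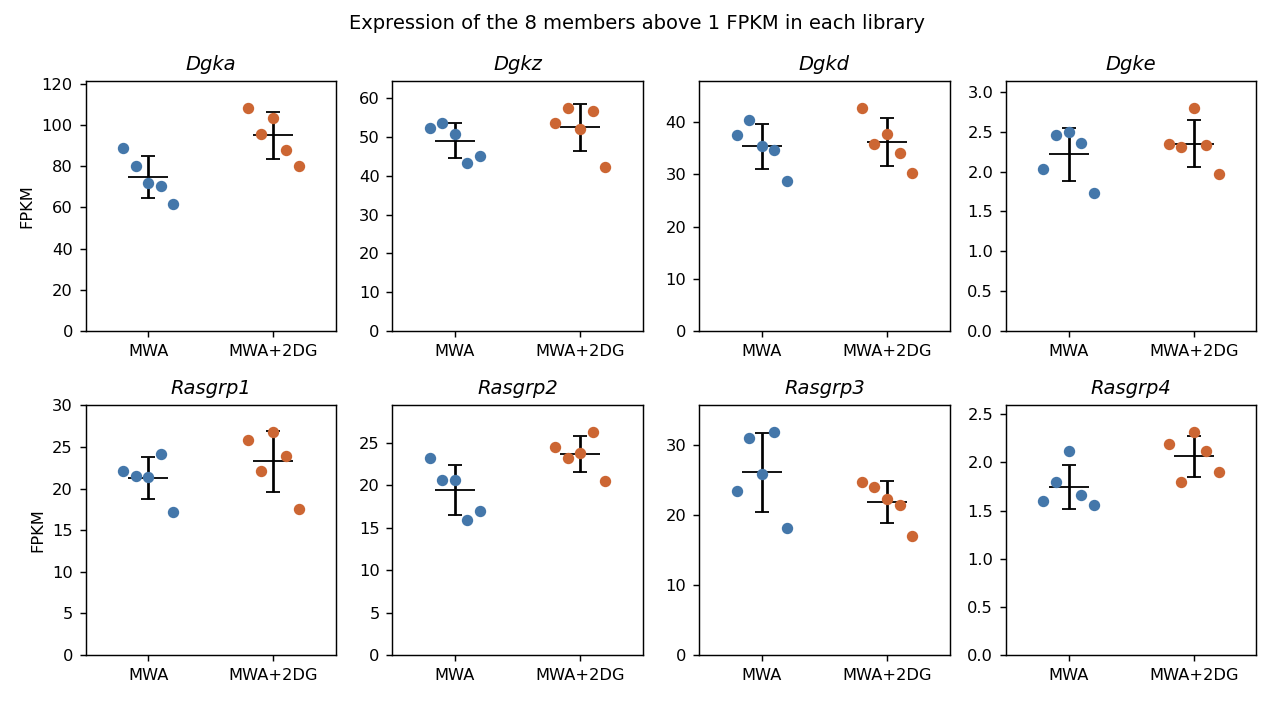
FPKM (axis from 0) of the 8 members above 1 FPKM in each library, with replicates 1 to 5 from left to right in each group, a bar at the group mean and error bars of 1 SD (n = 5). Dgka and Rasgrp2 sit higher in MWA+2DG with overlapping groups, Rasgrp3 sits lower, and Dgkd and Dgke overlap widely.

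The libraries also fell into 2 sets that the labels do not name. A principal component analysis of the genes tested placed, along its leading axis (36.4% of the variance), replicates 1 and 2 of both groups at one end, from -23.4 to -18.9, and replicates 3 to 5 between -1.58 and 33.5. Each set held both groups, so the differences can be given within them, with 2 or 3 libraries a group and no test. Dgka differed by 0.27 in the set of replicates 1 and 2 and by 0.40 in replicates 3 to 5. Rasgrp2 differed by 0.12 and 0.38, and Rasgrp3 by -0.14 and -0.28. The sign was the same in both sets for these 3 genes, with the larger difference in replicates 3 to 5. They are the tested members with the largest differences over the same libraries, so the equal sign is a description and no independent support. Dgkd differed by 0.01 and 0.05, and Rasgrp1 by 0.13 and 0.11.

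Reads of overlapping genes limit some values, since it is not stated whether the counting used strand. In the GENCODE M21 models 15.4% of the exonic bases of Rasgrp4 lie over exons of Fam98c on the opposite strand, a gene at 10.2 FPKM against 1.91 for Rasgrp4. For Dgka the overlap was 2.20% with Pmel at 1.64 FPKM, and for Dgkz 3.54% with Gm9821 at 8.52 FPKM.

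Promoter windows are shown for Dgka and Rasgrp2, whose levels went together across libraries, and for Rasgrp3, which had r = 0.0366 with Dgka and -0.163 with Rasgrp2 over all libraries and 0.554 and 0.179 once the group means were removed. Of the 10 members 9 had a window in the RefSeq table (GRCm38.p6), and Rasgrp4 had none. Each window holds 250 bases before and 50 bases after the start site, 5′ to 3′ on the gene's strand, and where a gene has several, the window nearest the 5′ end of its gene model is given. Capitals mark matches, on either strand, to short letter strings of factors known in lymphocytes: RUNX (TGTGGT), then ETS (CCGGAA), then TCF7 and LEF1 (CTTTGA), then FOXO (TGTTTAC), then EBF1 (CCCNNGGG), and NF-kB (GGGNNTTCC). The ETS, EBF1 and NF-kB strings can overlap each other.
Dgka, chr10:128745035-128745334, minus strand: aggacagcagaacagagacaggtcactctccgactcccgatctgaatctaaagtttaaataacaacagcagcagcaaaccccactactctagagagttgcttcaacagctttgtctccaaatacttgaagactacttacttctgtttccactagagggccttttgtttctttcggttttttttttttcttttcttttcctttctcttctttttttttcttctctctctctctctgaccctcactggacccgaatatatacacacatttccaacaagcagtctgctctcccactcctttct
Rasgrp2, chr19:6399625-6399924, plus strand: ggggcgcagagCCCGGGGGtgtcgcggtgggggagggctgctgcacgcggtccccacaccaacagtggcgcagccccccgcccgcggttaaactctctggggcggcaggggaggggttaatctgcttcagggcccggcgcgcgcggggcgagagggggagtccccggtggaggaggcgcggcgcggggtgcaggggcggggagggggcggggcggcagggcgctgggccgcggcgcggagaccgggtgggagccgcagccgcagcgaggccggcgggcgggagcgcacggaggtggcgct
Rasgrp3, chr17:75435655-75435954, plus strand: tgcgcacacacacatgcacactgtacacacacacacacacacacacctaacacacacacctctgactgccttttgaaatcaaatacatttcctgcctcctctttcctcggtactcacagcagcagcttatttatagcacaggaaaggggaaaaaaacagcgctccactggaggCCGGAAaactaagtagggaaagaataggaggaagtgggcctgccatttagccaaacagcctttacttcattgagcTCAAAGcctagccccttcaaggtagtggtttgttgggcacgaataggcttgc

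The Dgka window was AT-rich with a GC content of 41.3% and held no match to any of the 6 strings. The Rasgrp2 window had a GC content of 80.0%, against a median of 52.7% over all 32851 windows, and held 1 match to the EBF1 string, which 13.7% of all windows hold. The Rasgrp3 window, at 48.3% GC, held 1 match to the ETS string and 1 to the TCF7 and LEF1 string, found in 14.9% and 16.0% of all windows. The RUNX string is in 16.8%, the FOXO string in 3.65% and the NF-kB string in 5.82% of windows, and none of the 3 windows shown held them. These are letter matches in a single window of each gene.

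Ratios within a library do not depend on its overall scale. Dgka over Dgkd was 1.99 to 2.37 in MWA and 2.54 to 2.74 in MWA+2DG, with means of 2.11 ± 0.153 and 2.63 ± 0.0801 (SD, n = 5 each). Here the groups did not overlap, although neither gene alone separated them. On the log2 scale 2 of the 28 pairs among the 8 members had ratios whose group ranges did not overlap, Dgka with Dgkd and Dgka with Rasgrp3, against 1.01% of all pairs of genes tested. The ratio of Dgka to another gene separated the groups for 20.3% of the other 13333 genes, that of Rasgrp2 for 9.44%, that of Rasgrp3 for 4.24% and that of Dgkd for 0.345%. These pairs were examined after the levels were seen, and the ratios are from the contrast that chose the members, so they are a description.

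The make-up of each family moved accordingly. Dgka made up 43.6% to 48.2% of the summed FPKM of all 10 kinase genes in MWA and 47.4% to 51.6% in MWA+2DG. The share of Dgkd was 21.4 ± 0.957% in MWA and 19.0 ± 0.725% in MWA+2DG (SD, n = 5 each), and the ranges did not overlap, with 5 of 5 MWA+2DG libraries below every MWA library. The share of Dgkz was 29.8 ± 1.71% and 27.6 ± 2.28%. Among the RasGRP genes, Rasgrp3 made up 33.3% to 43.4% of the summed FPKM in MWA and 29.1% to 33.7% in MWA+2DG. Rasgrp2 made up 28.6 ± 4.40% and 33.5 ± 2.15%, and the ratio of Rasgrp2 to Rasgrp3 was 0.777 ± 0.201 in MWA and 1.09 ± 0.119 in MWA+2DG. In 4 of 5 MWA+2DG libraries that ratio was above every MWA library.

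**Figure D3:**
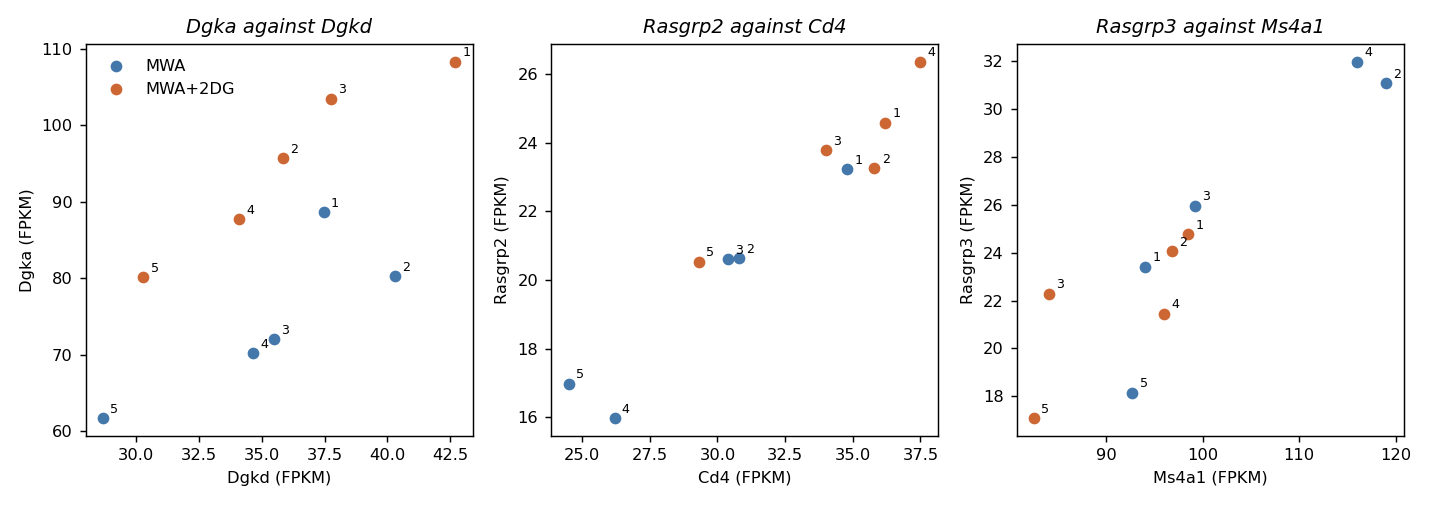
FPKM of Dgka against Dgkd, of Rasgrp2 against Cd4 and of Rasgrp3 against Ms4a1, 1 point per library with its replicate number (axes do not start at 0). In the first panel the MWA+2DG points lie on a line above the MWA points, and in the other panels the points of both groups share 1 band.

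The pathway around these genes was given by 82 genes in 9 lists, none of them a member, of which 73 passed the filter. By the study's rule 3 were higher in MWA+2DG and 0 were lower, and limma called 0 at an adjusted p below 0.05, with 6 at an unadjusted P below 0.05. Over all 13334 genes 0.952% were higher and 1.87% lower by the rule, and 567 had an unadjusted P below 0.05. Of the 73, 50 had a positive log2 difference and the median was 0.05, beside a median of 0.01 and 52.6% positive over all genes tested. Prkcq, the protein kinase C theta of T cells, ranged from 8.47 to 14.2 FPKM in MWA and from 12.7 to 17.3 FPKM in MWA+2DG. All 5 MWA+2DG libraries were above the MWA mean and 3 were above every MWA library, for a log2 difference of 0.45 (SE 0.142; limma, adjusted p = 0.995). Grap2, the adaptor Gads that links LAT to SLP-76, differed by 0.30 (SE 0.133; limma, adjusted p = 0.995), and it met the rule in 9 of the 19 alternatives where Prkcq met it in 19.

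Blnk, the adaptor of the B cell receptor, had the lowest difference of the 12 genes of the phospholipase C list at -0.18, with 28.1 ± 1.44 FPKM in MWA and 24.7 ± 2.13 FPKM in MWA+2DG (SD, n = 5 each). The 12 genes split into 7 positive and 5 negative differences. Among the 8 tested protein kinases C and D, 6 were positive, with Prkd3 lowest at -0.09. None of the 15 Ras and Rap GTPases and regulators met the rule. They ran from -0.14 for Rap1a, which encodes a form of Rap1, to 0.16 for Sos1, the exchange factor recruited by GRB2. Rap1b, which encodes another form of Rap1, was 106 ± 3.67 FPKM in MWA and 110 ± 4.04 FPKM in MWA+2DG. Its log2 difference was 0.05. Rap1a was 68.7 ± 3.79 FPKM in MWA and 62.3 ± 3.02 FPKM in MWA+2DG (limma, adjusted p = 0.995). In 5 of 5 MWA+2DG libraries it was below every MWA library, the only gene of the 73 whose groups did not overlap. Over all 13334 genes tested 0.802% showed that pattern, and Rap1a was picked after its values were seen.

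Below Ras the differences were small. The 8 genes of the Raf, MEK and ERK cascade ran from -0.07 for Mapk3, which encodes ERK1, to 0.12 for Braf. Of the 12 ERK response and feedback genes 7 were positive and 5 negative and none met the rule. They ran from -0.20 for Dusp6, a phosphatase of ERK, to 0.23 for Spred2, an inhibitor of the Ras pathway. Dusp6 was 20.2 ± 2.21 FPKM in MWA and 17.4 ± 1.41 FPKM in MWA+2DG. Of the enzymes that make or use diacylglycerol and phosphatidic acid 11 of 16 were tested and none met the rule, from -0.22 for Daglb, a diacylglycerol lipase, to 0.18 for Dgat2, which makes triglyceride. Among 3 partners or regulators of the kinases Foxo3 was highest at 0.16 and Snx27 lowest at -0.01. Dgkq, the only other kinase gene above the filter, differed by 0.12.

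**Figure D4:**
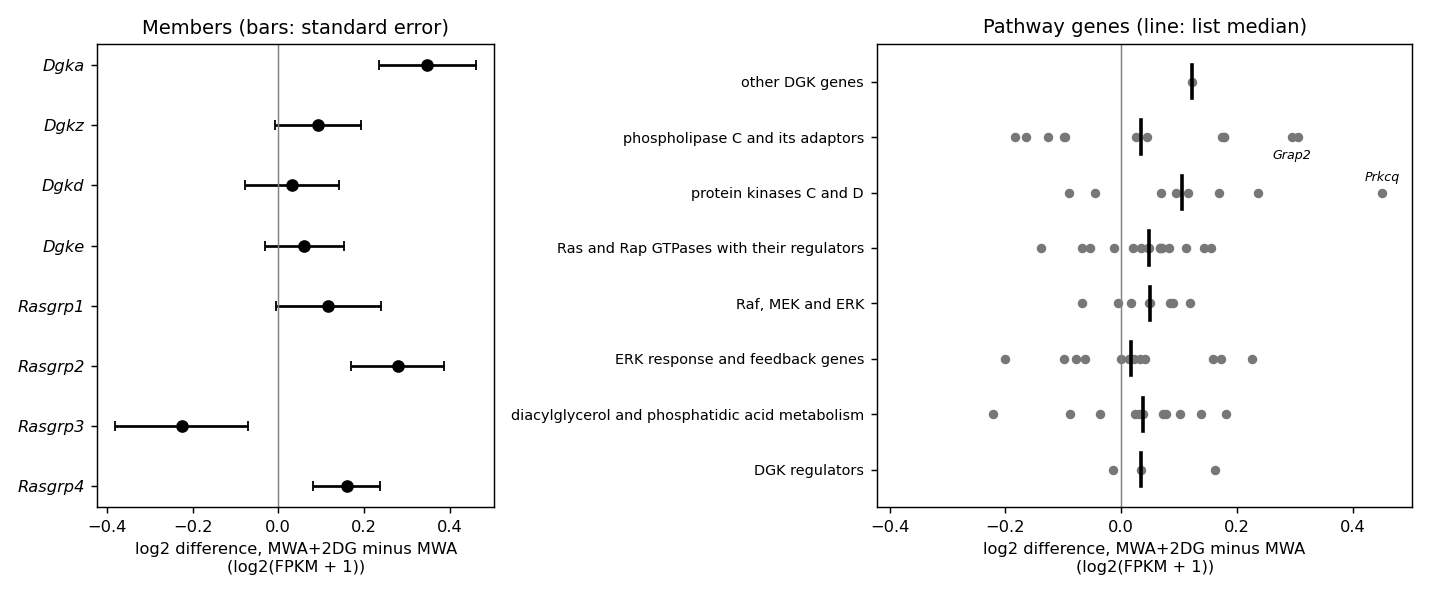
Log2 difference (MWA+2DG minus MWA, log2(FPKM + 1)) of the 8 members with standard errors, left, and of tested pathway genes in 8 lists with the list median as a black line, right. Dgka at 0.35 and Rasgrp2 at 0.28 lie right of 0 and Rasgrp3 at -0.23 left of it, while most pathway genes lie near 0, with Prkcq at 0.45 the highest.

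Across the 10 libraries the members followed T cell and B cell genes differently. The values below are Pearson correlations of log2(FPKM + 1) with the mean of 10 T cell genes or 10 B cell genes. They are descriptions, since the points share library scale and cell content, and the median over all genes tested was 0.244 with the T cell mean and 0.262 with the B cell mean. Dgka had r = 0.758 with the T cell mean (Spearman rho 0.879) and 0.0715 with the B cell mean. Its r with the T cell mean was 0.670 without the 2 libraries farthest from the median, MWA replicates 3 and 4, and 0.738 after removal of the group means. That removal moved its r with the B cell mean to 0.636, close to that with the T cell mean. Of the T cell genes, Cd28, the costimulatory receptor, was nearest to Dgka at r = 0.929 and Cd2 farthest at 0.332.

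Rasgrp2 gave a similar pattern, with r = 0.704 with the T cell mean and 0.0811 with the B cell mean. With the group means removed these were 0.639 and 0.564. The gene nearest to it among all 13334 tested was Cd4, the coreceptor of helper T cells, at r = 0.965, followed by Unc13d and Unc5cl at 0.939 and 0.937. Cd4 was 34.8, 30.8, 30.4, 26.2 and 24.5 FPKM in MWA and 36.2, 35.8, 34.0, 37.5 and 29.3 FPKM in MWA+2DG. The libraries lowest for Cd4, MWA replicates 4 and 5, were also the lowest for Rasgrp2, and MWA+2DG replicate 4 was the highest for both. Dgkz correlated with both means, at 0.721 with T and 0.592 with B. With the group means removed the order turned, at 0.684 with T and 0.862 with B.

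Rasgrp3 showed the opposite pairing over all libraries. Its r was 0.765 with the B cell mean, higher than that of 97.4% of the genes tested, and -0.0718 with the T cell mean. Within the B cell list it was nearest to Ms4a1, which encodes CD20, at r = 0.877. Without the 2 libraries farthest from the B cell median, MWA replicate 2 and MWA+2DG replicate 5, its r with the B cell mean fell to 0.434. With the group means removed that r was 0.711. The T cell side moved too. Without the 2 libraries farthest from the T cell median, MWA replicates 3 and 4, the r of Rasgrp3 with the T cell mean was 0.505. With the group means removed it was 0.121. The opposite pairing thus depended on which libraries were kept. The B cell list was not uniform, since Cd79a, a chain of the B cell receptor, had r = -0.579 with Rasgrp3. Dgkd and Rasgrp1 took positions between these, at 0.540 and 0.447 with T and 0.575 and 0.387 with B. With the group means removed Dgkd and Rasgrp1 were at 0.548 and 0.372 with T and 0.695 and 0.612 with B. Rasgrp4 followed neither over all libraries, at 0.149 and -0.131.

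**Figure D5:**
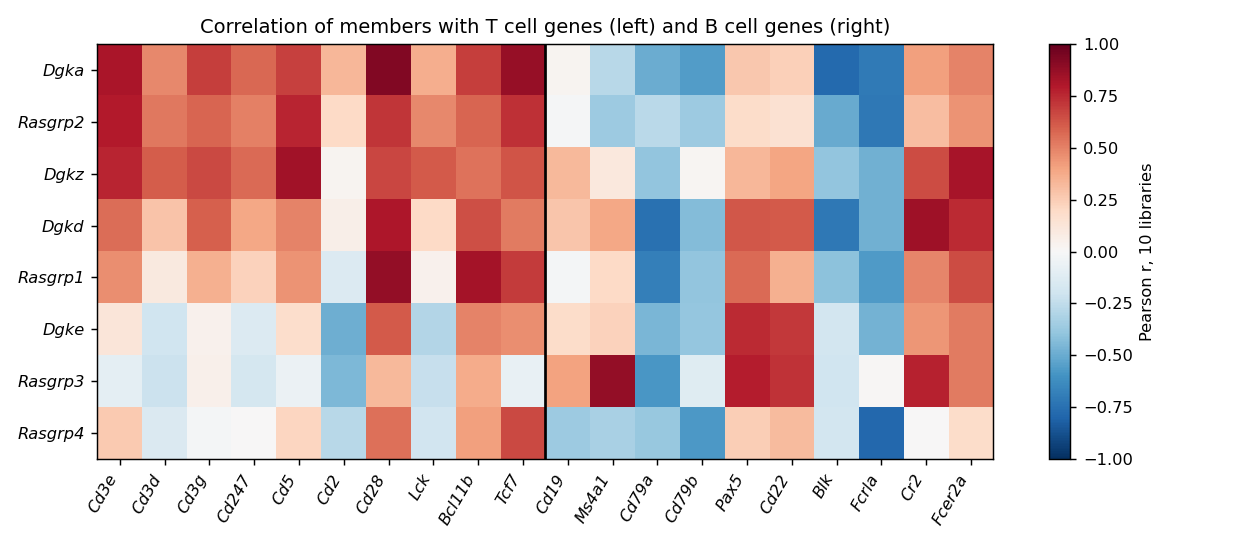
Pearson r over 10 libraries of the 8 members (rows) with 10 T cell genes and 10 B cell genes (columns, divided by the line), red positive and blue negative. Dgka, Rasgrp2 and Dgkz are red over the T cell genes apart from pale squares at Cd2, Rasgrp3 is red at Ms4a1, Pax5, Cd22 and Cr2, and Cd79a, Blk and Fcrla are blue or pale in every row.

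Among themselves the members mostly went up and down together. Of the 28 pairs 26 had an r above 0 and 19 an r above 0.5, with a median of 0.577. No median for pairs of other genes is given, and all pairs share library scale and cell content, so these counts are a description. The highest was Dgka with Rasgrp2 at 0.837, followed by Dgke with Rasgrp1 at 0.803 and Dgkz with Rasgrp2 at 0.796. The lowest was Rasgrp2 with Rasgrp3 at -0.163, and Rasgrp3 with Rasgrp4 was at -0.0421. Dgka and Dgkd had r = 0.697 over all libraries and 0.911 once the group means were removed.

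The genes nearest to the other members were mostly outside the pathway. Dgka was nearest to Faah, a hydrolase of fatty acid amides, at r = 0.979, then to Gpr132 and Stk38 at 0.958 and 0.957. Rasgrp3 was nearest to Ccdc50 at 0.974, Fam206a at 0.965 and Epb41l2 at 0.962. Rasgrp1 was nearest to 2810021J22Rik, Prkab2 and Lemd3 at 0.976, 0.936 and 0.928, and Dgkd to Pofut1, Rab14 and AW554918 at 0.975, 0.974 and 0.970. Dgkz was nearest to Kifc2, Snx11 and Dtnb at 0.954, 0.953 and 0.944. Dgke was nearest to Pip4k2c, a lipid kinase, at 0.965, then to Eif2ak4 and Zdhhc9 at 0.959 and 0.945, and Rasgrp4 to Atn1, Mrtfa and Ttyh3 at 0.934, 0.933 and 0.925.

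Cell type genes moved with the groups as well, and their part in the members' differences was not tested. All 10 T cell genes had a positive log2 difference, with a median of 0.15, and their summed FPKM ran from 378 to 556 in MWA and from 408 to 562 in MWA+2DG. All 10 B cell genes had a negative one, with a median of -0.09, and sums of 1686 to 1890 and 1559 to 1808. Relative to the mean of the T cell genes, Dgka was 1.20 ± 0.180 higher in MWA and 1.38 ± 0.0913 higher in MWA+2DG on the log2 scale (SD, n = 5 each), a difference of 0.19 against 0.35 for Dgka alone, and the groups overlapped. Relative to that mean Rasgrp2 differed by 0.12. Rasgrp3 relative to the mean of the B cell genes differed by -0.13, against -0.23 for Rasgrp3 alone.

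Other cell types known to use these proteins were measured by their own genes. Mast cell and basophil genes, a known site of Rasgrp4, summed to 7.61 to 38.2 FPKM in MWA and 7.01 to 43.3 FPKM in MWA+2DG over 8 genes, 5 of them tested, and Rasgrp4 had r = -0.0515 with their mean. Platelet and megakaryocyte genes, another known site of Rasgrp2, summed to 5.13 to 7.19 and 4.30 to 8.28 FPKM over 6 genes, and Gp6, the platelet collagen receptor, was listed at 0 in every library. Neutrophil genes ran from 19.2 to 81.8 FPKM in MWA and from 9.31 to 17.6 FPKM in MWA+2DG, with 3 of 8 genes tested and 2 of them lower by the study's rule. The libraries of a group differed widely in these genes. S100a9 was 16.8 ± 16.9 FPKM in MWA and 4.31 ± 3.68 FPKM in MWA+2DG. S100a8 was 7.08 ± 8.29 FPKM in MWA and 1.60 ± 1.59 FPKM in MWA+2DG. Macrophage and monocyte genes summed to 1514 to 2366 FPKM in MWA and 1109 to 1592 FPKM in MWA+2DG, with 2 of 8 lower by the rule. Most of that sum was Lyz2, with means of 1690 FPKM in MWA and 1218 FPKM in MWA+2DG. Of the 8 genes 3 had a positive and 5 a negative log2 difference, with a median of -0.03. All 8 tested members had a negative r with the mean of that list, from -0.836 for Dgkz to -0.279 for Rasgrp3, with Dgka at -0.704. All 8 were also negative with the mean of the NK cell genes, from -0.869 for Dgkz to -0.332 for Rasgrp4. Only 2 of the 5 NK cell genes found passed the filter. No median over all genes tested is given for either list, so nothing about the members is read from these signs. The ranges of the remaining lists overlapped: plasma cell genes (6 genes) at 212 to 582 and 155 to 396 FPKM, NK cell genes (5 found) at 8.75 to 19.3 and 9.43 to 24.1, dendritic cell genes (7) at 24.2 to 31.7 and 19.2 to 32.3, stromal and endothelial genes (8) at 85.9 to 111 and 88.1 to 117, epithelial and tumour cell genes (5) at 2.34 to 5.57 and 2.05 to 10.4, and red blood cell genes (4) at 15.2 to 43.9 and 11.2 to 54.1.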

How the data were processed

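RNA of 10 TDLN libraries, 5 labelled MWA and 5 labelled MWA+2DG, 1 per mouse, was sequenced from a dUTP-stranded kit. The deposited values are FPKM per Ensembl gene for each library, which the authors made with HISAT2 and StringTie. The submitters' processing notes also name cutadapt 1.9, HISAT2 2.0.4, StringTie 1.3.4d, UMI-tools and the build mm9, and the methods name fastp and ballgown. Several steps are thus given in more than one form. Some identifiers in the files postdate mm9, so no coordinates are given for the measured genes, and the sources used here do not say whether counting used strand.

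Identifiers were matched to mouse symbols (33541 of 33643), and rows of the 57 symbols with several identifiers were summed, leaving 33585 genes. The 13334 genes whose mean reached 1 FPKM were put on the log2(FPKM + 1) scale and fitted by limma (version 3.58.1, R 4.3.3), with group as the only term and Benjamini-Hochberg adjustment over all of them. Fold changes on this scale understate those of low genes. The fit was tested on simulated data. No 2 libraries shared more than 0.0204% of their values above 0. Replicates are separate mice by the labels. Correlations and ratios used Python 3.11.15, pandas 2.3.3 and scipy 1.17.1.

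The members and the gene lists were chosen with earlier results of these data known. Besides the members, the text names the other 4 kinase genes, in each pathway list the genes of lowest and highest difference and those that met a call rule, the T and B cell genes with a correlation given, and for each tested member the 3 genes of highest r. Some pathway genes are counted but not reported here by name. Rap1a and Rap1b, S100a8 and S100a9, the ratios and the promoter motifs were singled out after their values were seen. The fit was repeated with 0.1 as the pseudocount, with every gene kept, with only genes above 5 FPKM, with each library brought to a sum of 1000000, under median ratio scaling and quantile normalization, by limma-trend, with a replicate block, with replicate set (1 and 2, or 3 to 5) as a term, and without each library in turn.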

Additional observations from a re-analysis of the deposited data

Results flagged for a closer look

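Of 34 groups of 5 libraries examined for a library far from the others, over the members, the other kinase genes and the 3 pathway genes that met the study's rule, 1 stood out, where chance alone flags about 1 in 20. Dgkb, a diacylglycerol kinase gene that is no member, was at 0.0132 FPKM in MWA+2DG replicate 4 and listed at 0 in the other 4 MWA+2DG libraries. With those 4 at 0 any value above 0 would be flagged, so nothing is read from it.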

How the results depend on the processing

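Over all genes, 127 were higher and 249 lower by the study's rule, against 69 and 161 with a filter of 5 FPKM and 328 and 159 after rescaling to 1000000, which moved the median log2 difference of all genes from 0.01 to 0.07. Leaving out 1 library gave 80 to 222 genes higher (80 without MWA replicate 5, 83 without MWA+2DG replicate 1, 200 without MWA replicate 1, 222 without MWA+2DG replicate 5) and 0 to 1 gene at an adjusted p below 0.05 (1 without MWA replicate 2). Of the pathway genes 2 to 5 were then higher (5 without MWA replicate 1) and 0 to 1 lower, Dusp6 without MWA replicate 4 and Daglb without MWA+2DG replicate 4. The causes were not tested.

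With replicate number as a block 164 genes were higher and 285 lower. The labels do not say that a number marks a shared litter, batch or day, and the numbers were not taken as pairs because not every pair exceeded 0.1: same-numbered libraries deviated together with r = 0.331, 0.501, 0.110, 0.0334 and 0.151, and only those of replicate 2 correlated best with their own number.

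Dgka met the study's rule in all 19 alternatives, which use the libraries that chose it and in part cannot alter its difference. The correlations were less stable. Under median ratio scaling the r of Dgka with the B cell mean was -0.543, that of Dgkd was -0.0659 and that of Rasgrp3 was 0.553. With the T cell mean the lowest r of Dgka, Dgkz and Rasgrp2 came from removal of the group and replicate set means. That step took Dgka from 0.758 to 0.424, Dgkz from 0.721 to 0.443 and Rasgrp2 from 0.704 to 0.487. It took Dgkd from 0.540 to 0.0743. No median over all genes tested is given for that setting. With no counts deposited, the precision of low genes such as Dgkg cannot be given.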
